A study of Mus musculus with 9 samples.

Results

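The genes of respiratory complexes II, III and V were followed on 9 mouse arrays, of which 6 held alveolar rhabdomyosarcomas and 3 held skeletal muscles of wild-type mice. The members are all genes on the array whose symbol begins with Sdha, Sdhb, Sdhc, Sdhd, Uqcr, Uqcc or Atp5, together with Cyc1, Cycs and Bcs1l. This gave 38 of the 12393 genes measured, read by 64 probe sets, with 7 genes of complex II, 13 of complex III, 17 of complex V and the gene of the mobile carrier cytochrome c. Where a gene had several probe sets, the brightest by its mean log2 signal on the 9 arrays stood for the gene. Alveolar rhabdomyosarcoma is a soft-tissue cancer with features of skeletal muscle. The labels name the tumours only by this diagnosis and the muscles only as wild-type controls. They give no tumour genotype, promoter or driver, no named muscle, no age and no word on whether the samples came from separate animals, so the p-values rest on sample-to-sample spread that may be technical.

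Complex II, succinate dehydrogenase, belongs both to the citric acid cycle and to the respiratory chain: it oxidises succinate and passes the electrons to ubiquinone. Complex III takes electrons from ubiquinol, hands them to cytochrome c and pumps protons across the inner mitochondrial membrane. Complex V, ATP synthase, lets protons flow back through its membrane rotor and makes ATP, and muscle fibres, which use much ATP, are rich in all of these. Cytochrome b of complex III and subunits a and A6L of complex V are encoded in mitochondrial DNA, and the members described here are nuclear genes.

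Signals are linear MAS5 intensities in arbitrary units, multiplied so that all arrays share one trimmed mean. This step matters for muscle 1 and muscle 3, which had been deposited at 294.3 and 140.9, against 500.2 on the other arrays. The 3′ to 5′ ratio of the Gapdh control, a sign of RNA quality, was 1.93 to 9.39 on the tumour arrays and 1.68, 57.17 and 33 on muscles 1 to 3. The hybridisation control cre gave 32500 on tumour 1 and 26648 on tumour 4, against 5345 to 13348 on the other 7 arrays. The listed fibre markers summed to between 1568 and 129357 in tumours, highest in tumour 1, and to between 195572 and 261469 in muscles. Of these 11 fibre genes, among them Ckm, Acta1 and Myh4, 10 were called lower in tumours. The 9 macrophage markers, among them Ptprc, Cd68 and Csf1r, summed to between 10613 and 39009 in tumours and to between 3236 and 4547 in muscles, and 8 were called higher. Both fat cell genes, Adipoq and Fabp4, were called lower, with sums of 145 to 1213 in tumours and 7613 to 9761 in muscles. The 5 endothelial markers, among them Pecam1 and Kdr, summed to between 765 and 2038 in tumours, below the 2492 to 2902 in every muscle, and 1 was called lower. The 6 fibroblast markers, among them Col1a1 and Dcn, summed to between 10027 and 59117 in tumours and to between 30598 and 37021 in muscles, with 1 called lower. No marker was listed at 0. The 6 myogenic markers, among them Myod1, Myog and Ncam1, summed to between 3928 and 10374 in tumours and to between 3369 and 6271 in muscles.

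Nuclear genes of complexes II, III and V were lower in the tumours or did not pass the test, and none was called higher. A gene was called when its adjusted p in limma, with Benjamini-Hochberg adjustment over all 12393 genes, was under 0.05. Of the 38 members 18 were called lower, where 9.09% of all genes were called lower and 8.66% higher. All 38 were among the 6197 genes at or above the median mean signal. With these tested alone, 970 of the 6197 and 19 of the 38 were called lower. The median log2 difference, tumour minus muscle, was -1.13 over the members and 0.10 over all genes. In the called members the fall was between 2.07-fold (Atp5o) and 6.51-fold (Uqcrc1) on the scale of log2(signal + 16). Every tumour lay below every muscle for 18 members, of which 16 were called, and for 11% of all genes; no member had every tumour above every muscle, which held for 10.7% of all genes. In whole tissue, fewer muscle fibres and less RNA per fibre cannot be told apart, and the part that the shift in cell markers plays in these differences was not tested. With the arrays as deposited, where the median of all genes is 0.79, 2 members were called lower and 1, Atp5g2, higher. Without muscle 1, 2 or 3 the counts called lower were 12, 11 and 9.

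**Figure D1:**
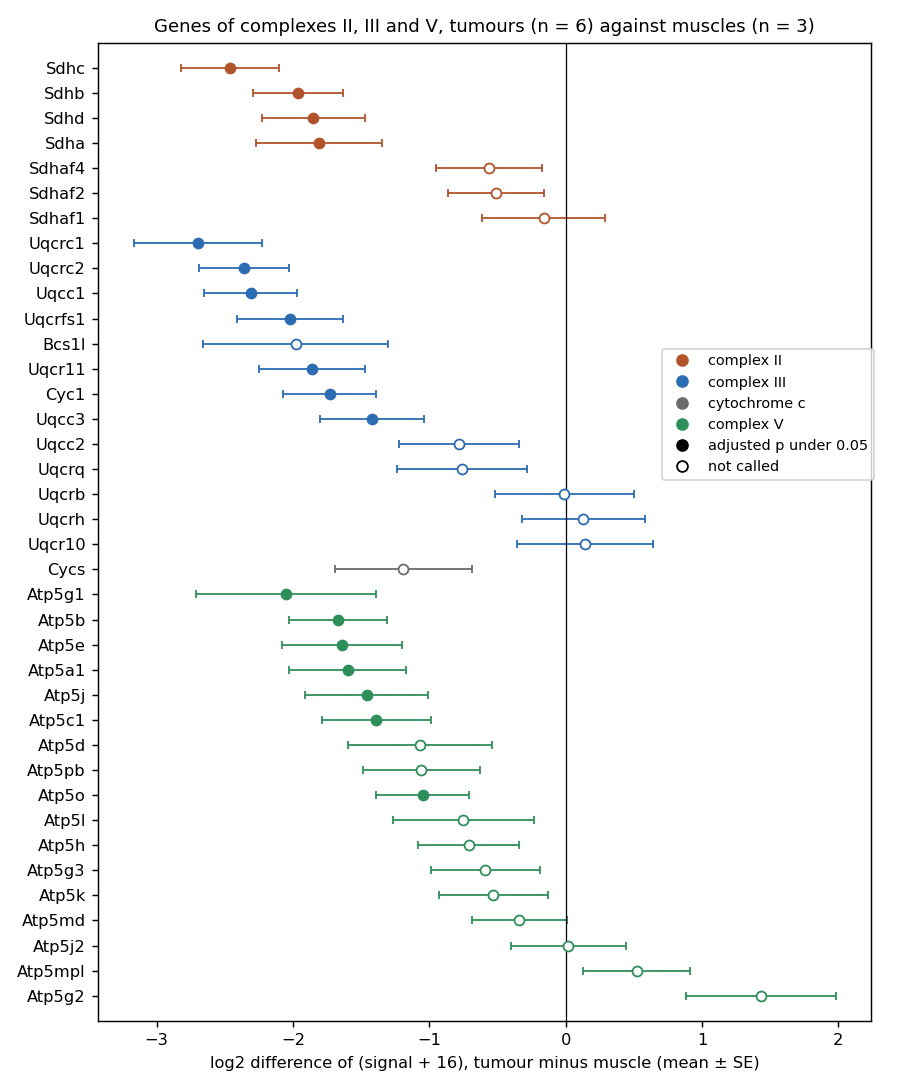
Log2 difference of signal + 16, tumour minus muscle, with its standard error for each of the 38 genes (6 tumours, 3 muscles). Filled points are called at an adjusted p under 0.05 and open points are not; all 18 filled points lie below 0, and the 5 points above 0 are open.

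All 4 subunits of complex II were lower in the tumours. Sdhc, one of the anchors that hold the enzyme in the membrane, had signals of 275 to 659 in tumours (median 540) and of 1956, 3277 and 3742 in muscles. It fell 5.52-fold (log2 difference -2.46 ± 0.36 SE, adjusted p = 3.5e-04, limma), and the groups did not overlap. Its lowest value was that of tumour 1, and the other 5 tumours lay between 504 and 659. A second Sdhc probe set was also called lower, at -1.53 ± 0.47 (adjusted p = 0.04, limma over all probe sets). There tumours 1 and 4 were the highest tumours, at 1165 and 1210, against 1436 to 1822 in muscles. Sdhd, the other anchor, had signals of 381 to 1171 in tumours (median 1023) and of 2951, 3814 and 2679 in muscles. In these signals tumour 1 was lowest and no tumour reached a muscle, with a log2 difference of -1.85 ± 0.38 (adjusted p = 0.004, limma). In its dimmer probe set, which was not called, tumour 4 (908) lay above muscle 3 (508) and tumour 1 was not lowest. Sdhb, the iron-sulfur subunit, had signals of 1779 to 3526 in tumours (median 2151) and of 10120, 8274 and 8214 in muscles. Its tumours were tightly grouped apart from tumour 4, the highest, and it fell 3.89-fold (adjusted p = 0.001, limma). Sdha, the flavoprotein that oxidises succinate, had signals of 1425 to 6461 in tumours (median 3106) and of 7626, 11623 and 12813 in muscles. Tumour 6 came close to muscle 1 without reaching it. By the brightest probe sets, Sdha was the subunit with the widest spread among tumours, at 4.53-fold. Its difference of -1.81 ± 0.46 had an adjusted p of 0.014 (limma), and the call was lost without muscle 2 or muscle 3 (0.068 and 0.084). A second Sdha probe set had signals of 1116 to 2868 in tumours, with tumour 4 lowest, and of 8020 to 11476 in muscles. Its difference was -2.56 ± 0.36 (adjusted p = 2.9e-04, limma over all probe sets).

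The 3 assembly factors of complex II on the array did not pass the test. Sdhaf1, which helps to insert iron-sulfur clusters into Sdhb, had signals of 128 to 637 in tumours (median 442) and of 525, 418 and 401 in muscles. The groups overlapped widely, tumour 2 alone was far below the rest, and the difference was -0.16 with a 95% interval of -1.13 to 0.81. Sdhaf2, which helps to attach the flavin to Sdha, and Sdhaf4, which binds the flavinylated Sdha, differed by -0.51 and -0.56, with intervals of -1.26 to 0.25 and -1.39 to 0.27. The median difference was -1.91 over the 4 subunits and -0.51 over the 3 assembly factors; a difference between these groups was not tested, and with the arrays as deposited the median of the assembly factors was 0.32.

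In complex III the 4 core genes were lower in every tumour than in any muscle. Uqcrc1, a core protein on the matrix side, had signals of 386 to 2486 in tumours (median 1371) and of 7589, 7815 and 8847 in muscles. It had the most negative difference of all 38 members, -2.70 ± 0.47 (adjusted p = 0.0013, limma), with tumour 2 at the bottom and tumour 1 at the top of a 6.45-fold range. Its partner Uqcrc2 ranged only from 1936 to 3262 in tumours, against 10861 to 18302 in muscles, and fell 5.13-fold (adjusted p = 3.2e-04, limma). Uqcrfs1, the Rieske iron-sulfur protein, had signals of 1517 to 4368 in tumours (median 3598) and of 11810, 13167 and 14019 in muscles. Tumour 4 stood below the others, and the fall was 4.05-fold (adjusted p = 0.0028, limma). Cyc1, cytochrome c1, had signals of 3435 to 5852 in tumours (median 4771) and of 14215, 15859 and 16109 in muscles. Both groups were narrow for this gene, which differed by -1.73 ± 0.34 (adjusted p = 0.0031, limma).

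Of the 5 other nuclear subunits of complex III, only Uqcr11 was called. This small subunit had signals of 998 to 2806 in tumours and of 3632 to 6339 in muscles, a 3.62-fold fall (adjusted p = 0.0044, limma). Uqcr10, a small subunit of the membrane arm, had signals of 460 to 2235 in tumours (median 737) and of 1311, 597 and 717 in muscles. Tumours 1 and 4 lay above every muscle while the rest lay among or below them, and the difference was 0.14 with a 95% interval of -0.94 to 1.22. Its other probe sets differed by -1.97 and -0.73, neither called, and as the mean of its probe sets the sign turned to -0.85. The lowest signals of these other probe sets were 7.25 and 64.3, both in tumour 5, and such low signals can be background. Uqcrb, a small subunit near the ubiquinone site, had signals of 17119 to 46892 in tumours and of 22936 to 33039 in muscles (difference -0.01, interval -1.10 to 1.08). Uqcrh, the hinge protein, differed by 0.13 (interval -0.83 to 1.08) and Uqcrq by -0.76 (interval -1.80 to 0.28). For Uqcrb, Uqcrh and Uqcr10, tumours 1 and 4 were the highest tumours. Without these tumours 1 of the 5 was called lower, and the median difference of the 5 was -0.42, against -0.01 with them. With the arrays as deposited this median was 0.85 and none was called, and as the mean of probe sets it was -0.75, so the value near 0 rests on the use of the brightest probe sets.

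Among the assembly genes of complex III, Uqcc1 and Uqcc3 were called. Uqcc1, needed for making cytochrome b, had signals of 180 to 285 in tumours and of 906 to 1479 in muscles, a 4.95-fold fall with little spread among tumours (adjusted p = 3.8e-04, limma). Uqcc3, which stabilises cytochrome b during assembly, had signals of 272 to 732 in tumours and of 1012 to 1335 in muscles (2.67-fold, adjusted p = 0.019, limma). Whichever muscle was left out, the call of Uqcc3 was lost (0.059 to 0.094). Uqcc2, which acts with Uqcc1, differed by -0.78 (interval -1.72 to 0.17). Bcs1l, the ATPase that moves the Rieske protein across the membrane, varied most among tumours of all members. Its signals were 43.5 and 50.3 in tumours 4 and 5 but 609 in tumour 1, against 571 to 1095 in muscles. It differed by -1.98 ± 0.68, with an adjusted p of 0.061 (limma), and was called without tumour 1 (0.016).

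For Cycs, cytochrome c, the answer depended on the probe set. The one with the highest mean had signals of 2422 to 12168 in tumours (median 4464) and of 12968, 11760 and 12845 in muscles. Tumours 1 and 4, at 12168 and 10745, were near the muscles, and the other 4 tumours were between 2422 and 4525. The difference was -1.19 ± 0.50 (adjusted p = 0.12, limma), and it was called without tumour 1 (0.024). A second probe set gave 1006 to 1508 in tumours and 10518 to 12385 in muscles, with no tumour set apart. Its difference was -3.17 ± 0.30 (adjusted p = 2.0e-05, limma over all probe sets). The third differed by -1.34 ± 0.38 (adjusted p = 0.027, limma over all probe sets). Which Cycs transcripts each probe set binds was not examined.

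In complex V the head, the stalk and the membrane part gave different counts. Of 17 genes 7 were called lower, with a median difference of -1.05. The count was 2 without muscle 1, 2 without muscle 2, 0 without muscle 3, 3 without tumour 5, 4 without tumour 6, 10 without tumours 1 and 4, and 0 with the arrays as deposited. Over all genes the count called lower was 1417 without tumours 1 and 4 and 607 without muscle 3, against 1127 with all arrays. The soluble F1 head holds the catalytic sites. Atp5b, its catalytic beta subunit, had signals of 3106 to 5469 in tumours (median 3907) and of 8836, 13859 and 16258 in muscles. The tumours were close together and all below muscle 1, the lowest muscle, and the gene fell 3.17-fold (-1.67 ± 0.36, adjusted p = 0.0059, limma). Atp5a1, the alpha subunit, had signals of 3719 to 11490 in tumours (median 6294) and of 17283, 20215 and 25109 in muscles. Tumours 3 and 6 were the highest, still well below the muscles (-1.60 ± 0.43, adjusted p = 0.02, limma). Atp5c1, the gamma subunit of the central shaft, ranged from 3943 to 10215 in tumours and from 15959 to 21227 in muscles, a 2.62-fold fall (adjusted p = 0.028, limma).

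The smaller parts of the head were less even. Atp5e, the epsilon subunit, fell 3.11-fold (adjusted p = 0.019, limma), though tumour 2, at 2249, reached the lower muscles. As the mean of their probe sets Atp5a1 and Atp5c1 were not called (-0.96, adjusted p = 0.063, and -0.61, adjusted p = 0.29, limma). Each mean includes a dim probe set, at 20 to 411 over all arrays for Atp5a1 and at 135 to 634 for Atp5c1. The call of Atp5a1 was lost without muscle 2 or 3 (0.074 and 0.11), that of Atp5e without muscle 1 or 3 (0.11 and 0.053) and that of Atp5b without muscle 3 (0.052). The call of Atp5c1 was lost whichever muscle was left out (0.079 to 0.14) and without tumour 5 (0.055). Atp5d, the delta subunit, was the one F1 gene not called (adjusted p = 0.2, limma). Its tumour 1 signal was 20553, above all muscles, while the other tumours lay between 3381 and 7840 and the muscles between 10061 and 16463. Without tumour 1 it was called (0.01), and its dimmer probe set differed by -2.31 ± 0.42 (adjusted p = 0.0018, limma over all probe sets).

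The peripheral stalk holds the head still while the rotor turns. Of its 4 genes Atp5o and Atp5j were called lower. Atp5o, the subunit that joins stalk and head, had signals of 2275 to 4365 in tumours and of 6402 to 8135 in muscles (2.07-fold, adjusted p = 0.045, limma). Atp5j, the coupling factor, ranged from 1070 to 4730 in tumours and from 6159 to 8428 in muscles (2.75-fold, adjusted p = 0.038, limma). Both calls were lost whichever muscle was left out (0.092 to 0.18 for Atp5o, 0.094 to 0.14 for Atp5j). Without tumours 2, 3, 5 or 6 the call of Atp5o was lost too (0.051 to 0.094), and that of Atp5j without tumours 5 or 6 (0.052 and 0.072). The dimmer probe set of Atp5o was called lower, at -1.67 ± 0.35 (adjusted p = 0.0049, limma over all probe sets). As the mean of its probe sets Atp5o was called as well (-1.36, adjusted p = 0.0071, limma). Atp5h, the d subunit, was lower in every tumour (6101 to 10639) than in any muscle (13118 to 14152), yet its difference of -0.71 was not called (interval -1.50 to 0.09). The groups overlapped in its dimmer probe set, which differed by -0.32 ± 0.38 and was not called. There tumours 2, 3 and 4 (2931, 3444 and 3180) lay above muscles 2 and 3 (2355 and 2518). Atp5pb, the b subunit, differed by -1.06 ± 0.43 (adjusted p = 0.11, limma). Tumour 4, at 11093, lay among its muscles and the other tumours below them, and without tumour 4 the gene was called (0.047).

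The rotor ring is built from copies of subunit c, which mammals encode in several genes, Atp5g1, Atp5g2 and Atp5g3, with different import sequences and the same mature protein. Of these only Atp5g1 was called. It had signals of 167 to 1829 in tumours (median 387) and of 4199, 1677 and 1236 in muscles. Tumour 1 overlapped the muscles, and the difference was -2.05 ± 0.66 (adjusted p = 0.045, limma). With arrays left out singly, this call was lost without tumour 2, 3, 5 or 6 (0.063 to 0.086) and without any muscle (0.072 to 0.22). It was also lost with quantile normalization (0.083) and with eBayes without the trend (0.059). Atp5g2 had signals of 1047 to 5082 in tumours (median 1642) and of 1487, 402 and 694 in muscles. Tumours 1 and 4 were highest and muscle 1 overlapped the tumours; the difference of 1.43 ± 0.55 was the most positive of all members but was not called (adjusted p = 0.096, limma; interval before adjustment 0.24 to 2.62). It was called higher with the arrays as deposited (0.0037) and as the mean of its probe sets (0.029), among other alternatives. This mean includes a dim probe set, at 22.7 to 240 over all arrays, which differed by 0.74 ± 0.60 and was not called. In that probe set tumour 1 was the lowest tumour, at 27.9. Atp5g3 had signals of 7327 to 15322 in tumours (median 12510) and of 16417, 18356 and 18753 in muscles. Every tumour was below every muscle, tumour 1 by the most, and the difference of -0.59 was not called (interval -1.45 to 0.28). Whether the 3 genes differ from each other in their change was not tested, and levels of different probe sets cannot be set against each other.

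**Figure D2:**
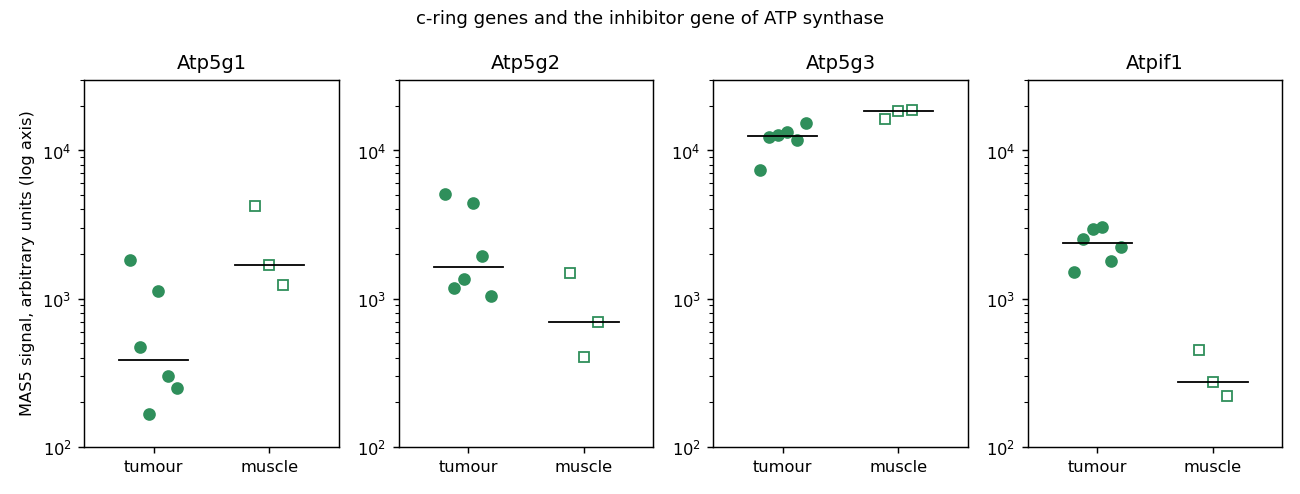
MAS5 signal on each array (log axis) of the c-ring genes Atp5g1, Atp5g2 and Atp5g3 and of the inhibitor gene Atpif1, with tumours as filled circles, muscles as open squares and the median of each group as a bar. The tumour median is 387 against 1677 in muscles for Atp5g1, 1642 against 694 for Atp5g2, 12510 against 18356 for Atp5g3 and 2378 against 275 for Atpif1; levels are comparable within a panel only.

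None of the 5 small membrane subunits of complex V was called. Atp5k and Atp5l, the e and g subunits that help ATP synthase to form dimers, differed by -0.53 and -0.75 (intervals -1.40 to 0.33 and -1.86 to 0.36). Atp5j2, the f subunit, had signals of 4317 to 13647 in tumours and of 5092 to 9180 in muscles, a difference of 0.02 (interval -0.87 to 0.92). Only tumour 1 lay above its muscles. Atp5md, a small subunit also called DAPIT, differed by -0.34 (interval -1.09 to 0.42). Atp5mpl, a small proteolipid, differed by 0.52 (interval -0.32 to 1.36), with tumours 3, 4, 5 and 6 above every muscle. The median difference of the 5 was -0.34, and 0.52 with the arrays as deposited.

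Set side by side, of complex II 4 of 7 genes were called lower (median -1.81), of complex III 7 of 13 (median -1.73) and of complex V 7 of 17 (median -1.05). Differences between complexes were not tested. By role, the medians ran from -2.19 (core) to -0.01 (other subunits, and -0.75 as the mean of probe sets) within complex III and from -1.60 (F1) to -0.34 (membrane subunits) within complex V. In every tumour the median signal, as a percent of the muscle mean of each gene, was 12.7% to 28.7% for complex II subunits, 21.7% to 26.7% for the core of complex III and 29.1% to 49% for F1. The same median was 48.7% to 120% for the membrane subunits of complex V and 52.5% to 163% for the other subunits of complex III. In the muscles the core of complex III lay between 92.7% and 109%. Complex I, from symbols that begin with Nduf, had 23 of 39 genes called lower and none higher (median -1.39), and 12, 16 and 14 called lower without muscle 1, 2 or 3. Complex IV, from symbols of Cox4 to Cox8, had 4 of 16 lower and 1 higher (median -0.15, and 0.71 with the arrays as deposited). Without muscle 1, 2 or 3 it had 1, 2 and 2 genes called lower, and without tumour 2 it had 3 called higher. With the arrays as deposited, complexes II, III and V had 1, 1 and 0 genes called lower.

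**Figure D3:**
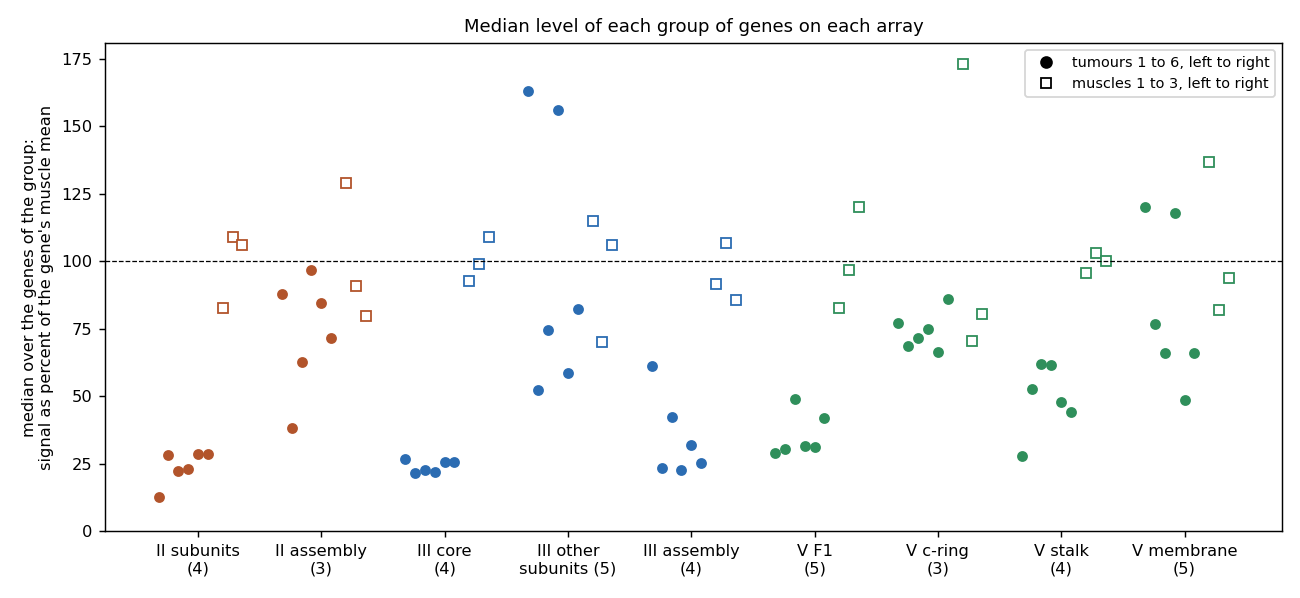
For each group of genes (number of genes in brackets), the median over its genes of the signal as a percent of the gene's muscle mean, on each tumour (filled circles) and each muscle (open squares). Complex II subunits and the complex III core are at 12.7% to 28.7% in all 6 tumours, while the other complex III subunits reach 163% and 156% in tumours 1 and 4.

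The spread of the members among tumours was wider than among muscles. Their median standard deviation of log2 signals was 0.59 among tumours and 0.31 among muscles, against 0.70 and 0.36 over all genes. Uqcrc2, Cyc1 and Uqcc1 were the most even across tumours, at 0.26, 0.26 and 0.27, and Bcs1l and Atp5g1 the least, at 1.39 and 1.29. Tumour 1 was the highest tumour for 13 members and the lowest for 10. It was lowest for Sdha, Sdhc, Sdhd, Atp5b, Atp5c1 and Atp5j, and highest for Uqcrb, Uqcr10, Cycs, Atp5d and Atp5g2. These ranks are those of the brightest probe sets. In the second probe sets of Sdha, Sdhc and Sdhd tumour 1 was not the lowest tumour, and in that of Atp5c1 it was. In the other probe sets of Uqcrb, Cycs, Atp5d and Atp5g2 it was not the highest, and those of Uqcr10 were mixed. Tumours 1 and 4 were together the 2 highest tumours for 12 of the 38 members (31.6%), as for 23.5% of all genes. This grouping was chosen after the values were seen. Muscle 1 was the highest muscle for 18 members (47.4%), as for 41.3% of all genes. Tumours 1 and 4 carry the high cre control. Among the muscles, muscle 1 has the low Gapdh ratio (1.68), while muscles 2 and 3 (57.17 and 33) lie above every tumour. The part of these controls in these patterns and in the differences between tumours and muscles was not tested. Leaving out tumours 1 and 4 raised the count of members called lower to 23, adding among others Cycs, Atp5d, Atp5pb and Bcs1l. Calls over all genes rose as well, from 1127 to 1417 lower and from 1073 to 1464 higher.

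**Figure D4:**
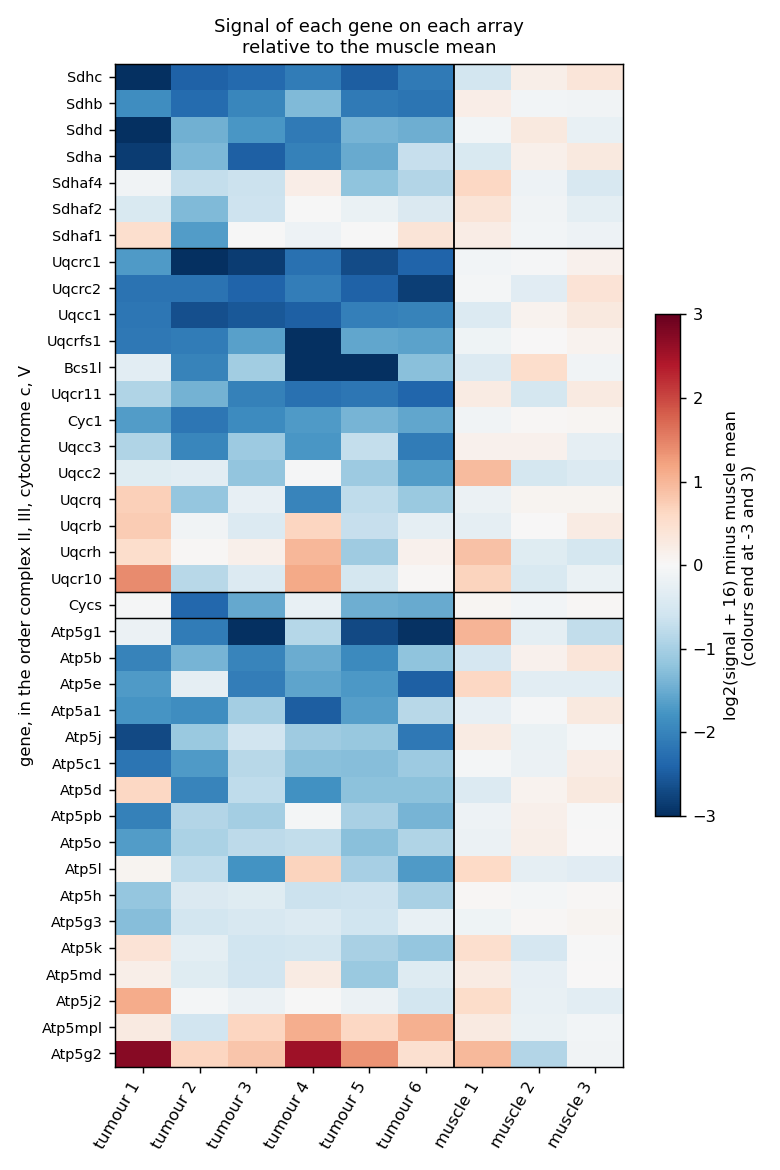
Log2(signal + 16) of each member on each array minus its mean over the 3 muscles, blue where lower and red where higher, with colours ending at -3 and 3. The blue block of the complex II subunits and complex III core runs across all 6 tumours, while Uqcr10 is reddest in tumours 1 and 4 and Atp5g2 is red in all 6.

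Of the genes that work with ATP synthase, its inhibitor went the other way. Atpif1, which binds the F1 head and blocks ATP hydrolysis when the membrane loses its proton gradient, had signals of 1513 to 3047 in tumours (median 2378) and of 452, 275 and 221 in muscles. Every tumour lay above every muscle, and the rise was 7.19-fold (2.85 ± 0.35, adjusted p = 1.0e-04, limma). Its dimmer probe set, at 34.5 to 209 in tumours and 59.1 to 102 in muscles, overlapped between the groups and was not called (0.24 ± 0.50). Of the 9 partner genes measured, 3 were lower. Ckmt2, the mitochondrial creatine kinase of muscle, differed by -7.47, Slc25a4, the ADP/ATP carrier of heart and muscle, by -2.22, and Vdac3, an outer membrane channel, by -1.48. The call of Vdac3 was lost without muscle 2 or 3 (0.068 and 0.072). The more general carrier Slc25a5 differed by 1.07 ± 0.38 (adjusted p = 0.068, limma). It was called higher without tumour 1 (0.012) and with quantile normalization (0.029), among other alternatives. Its probe sets at 1.20 ± 0.35 and 1.11 ± 0.34 were called higher (adjusted p = 0.031 and 0.04, limma over all probe sets). The rest were positive but not called. The phosphate carrier Slc25a3 differed by -1.05 ± 0.45 (adjusted p = 0.14, limma). Of 10 regulators of mitochondrial genes 4 were lower: the receptor gene Esrra (-2.05), the coactivator gene Ppargc1a (-1.82), and Tfam (-1.34) and Tfb2m (-2.02), which act on mitochondrial DNA. Nrf1, a factor that binds many promoters of respiratory genes, differed by 0.49 ± 0.33 and Gabpa, another such factor, by -0.51 ± 0.48, neither called. The call of Tfam was lost whichever muscle was left out (0.12 to 0.14) and without tumour 4 (0.068), and that of Ppargc1a without muscle 2 or 3 (0.075 and 0.062). With the arrays as deposited none of the 10 was called.

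The members' promoters were searched for the core letters of the NRF-1 site, GCGCANGCG, on both strands, with overlapping matches counted. RefSeq promoters (GRCm38.p6, 250 bases before to 50 after the start) were matched for 31 of the 38 members. Of these 14 (45.2%) held the letters at least once, against 7.03% of 27025 genes with a promoter in the table and 12.5% of the 9882 of them that were on the array. Of the 14 genes with the letters 6 were called lower, and of the 17 without them 8. A match is a description of these letters and not a binding site. The 150 bases just before the start are shown for Sdha and Sdhd, complex II genes with a match, for Sdhb, a complex II gene without one that fell as well, for Cycs, and for Atp5g2, which holds a match and had the most positive difference. Matches are in capitals.
Sdha (chr13:74350241-74350390, minus strand): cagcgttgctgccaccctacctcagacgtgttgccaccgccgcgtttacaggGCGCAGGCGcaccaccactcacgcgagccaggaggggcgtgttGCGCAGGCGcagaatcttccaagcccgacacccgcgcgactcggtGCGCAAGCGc
Sdhd (chr9:50603850-50603999, minus strand): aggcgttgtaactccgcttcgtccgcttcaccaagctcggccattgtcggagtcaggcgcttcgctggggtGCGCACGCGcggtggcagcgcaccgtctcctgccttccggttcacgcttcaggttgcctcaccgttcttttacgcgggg
Sdhb (chr4:140961121-140961270, plus strand): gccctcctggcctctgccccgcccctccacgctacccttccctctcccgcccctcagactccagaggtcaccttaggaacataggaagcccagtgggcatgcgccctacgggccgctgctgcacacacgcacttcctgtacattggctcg
Cycs (chr6:50566570-50566719, minus strand): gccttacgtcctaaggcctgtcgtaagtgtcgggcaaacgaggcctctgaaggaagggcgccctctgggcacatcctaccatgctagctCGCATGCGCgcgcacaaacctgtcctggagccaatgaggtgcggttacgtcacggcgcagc
Atp5g2 (chr15:102671048-102671197, minus strand): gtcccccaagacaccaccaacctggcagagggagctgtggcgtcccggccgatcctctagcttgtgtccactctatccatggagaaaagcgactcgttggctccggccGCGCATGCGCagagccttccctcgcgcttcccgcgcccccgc

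The matches in Sdha began at positions -98, -55 and -10 from the start site, that of Sdhd at -79 and that of Cycs at -61. In Atp5g2 a match on each strand overlapped, beginning at -42 and -41. Matches of Uqcrc1, Atp5g3 and Atp5o lay after the start and are not shown.

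Several probe sets were present for 20 of the members, and in 16 of these all pointed the same way. Of the 64 probe sets 27 were called lower and 0 higher (limma over all probe sets). Besides Cycs and Atp5d, the uncalled members Atp5pb and Uqcrb had a dimmer probe set called lower, at -1.81 ± 0.38 and -1.48 ± 0.35 (adjusted p = 0.0049 and 0.0099). Of the called genes, Atp5a1 had dimmer probe sets at 0.05 ± 0.68 and -1.33 ± 0.53, Atp5c1 had one at 0.17 ± 0.45 and Sdhd one at -0.96 ± 0.42, none of them called. The signs were mixed for Atp5a1, Atp5c1, Uqcr10 and Uqcrq. Of Uqcrq, the brightest probe set differed by -0.76, and the other 3 by 0.22, 1.57 and 1.25, none of them called, so its direction is uncertain. These other 3 were dim, at 11.6 to 469 over all arrays, against 1231 to 8030 for the brightest.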

How the data were processed

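Each sample's total RNA (Trizol, then an RNeasy column) carried a biotin label and went on 1 Affymetrix array, per the labels' protocols. The authors made linear signal intensities with MAS5, per the submitters' processing notes; the sources used here give no version, scaling target or detection call. Low signals can be background. Every array was multiplied to the median of the 2% trimmed means, which multiplied muscle 1 by 1.6995 and muscle 3 by 3.5493. Of 22690 probe sets, 64 controls, 691 with several symbols and 1555 with none were left out. Log2(signal + 16) was tested for 12393 genes over all 9 arrays, without covariates, with limma 3.58.1 in R 4.3.3 (lmFit, eBayes with trend, Benjamini-Hochberg). The fit was tested on simulated data. Summaries used Python 3.11.15, numpy 2.4.6, pandas 2.3.3 and scipy 1.17.1. Every member may be named. Values on all muscles, with the tumours' lowest, median and highest, were set for 13 genes and for the most negative and most positive difference of each complex; the ranges and single-array values of other members were chosen after their values were seen. Members and lists were chosen with earlier results of these data known. The labels do not say whether replicate numbers in the titles pair the samples. Across genes, deviations of same-numbered arrays correlated at 0.23, 0.18 and -0.02 for muscles 1, 2 and 3. The tumour that correlated best was tumour 1 for muscle 1 and tumour 2 for muscles 2 and 3. The number of arrays limits the precision.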

Additional observations from a re-analysis of the deposited data

Results flagged for a closer look

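Among the 38 members, 4 had 1 tumour far from the other 5 on the log2 scale. The gap from that tumour to the nearest other, divided by the range over the 6 tumours, was 0.65 for Atp5g3 (7327 in tumour 1), 0.68 for Atp5j2 (13647 in tumour 1), 0.70 for Sdhaf1 (128 in tumour 2) and 0.69 for Sdhc (275 in tumour 1). Chance flags about 1 in 20 groups. Without tumour 1, Sdhc was still called lower, and Atp5g3 and Atp5j2 were still not called. In the second probe set of Sdhc tumour 1, at 1165, was among the highest tumours. Sdhaf1 was not called without tumour 2.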

How the results depend on the processing

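All 18 called members stayed negative under the 20 alternatives run. Sdhc and Uqcrc1 were called under each of the 20, and Uqcc1, Uqcrc2, Sdhb, Cyc1 and Uqcrfs1 under all except the deposited scale. Of the 20 uncalled members, 14 changed sign under at least 1 alternative and 6 were called under at least 1. As deposited, 2 members were called lower (1 of complex II, 1 of complex III, 0 of complex V), 369 genes were called lower and 2373 higher, and the median difference was -0.26 over the members and 0.79 over all genes. This is the construction of the alternative, since muscle 1 and muscle 3 then stay on their lower scale. With a replicate block 11 members were called lower, 2 of them in complex V, and 1, Atp5g2, higher (adjusted p = 0.043, limma). The labels do not say whether the titles' numbers pair the samples. Leaving out 1 array gave 9 to 21 members called lower, 0 to 8 of complex V and 607 to 1348 of all genes; the low ends were without muscle 3. The members' median was -1.32 with quantile normalization, -1.38 as the mean of probe sets (18 called lower and 1, Atp5g2, higher), -1.35 as the median of probe sets tested singly, and -1.30 to -1.08 without 1 array; the cause was not tested. Offsets of 1 and 64, median centring, bright genes only and eBayes without the trend gave 16 to 19 members called lower.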
